A study of Mus musculus with 3 samples.

Results

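The genes described here encode the subunits of oxidative phosphorylation in the nucleus of the mouse. They were chosen by name: symbols beginning with Nduf, Uqcr, Cox4 to Cox8 or Atp5, together with Sdha, Sdhb, Sdhc, Sdhd and Cyc1. Of 97 protein-coding genes with such names in the RefSeq gene table, 93 had a probe on the array, among 19747 genes that could be matched in all. No probe was matched for Atp5g1, Ndufb1, Ndufb4b and Ndufb4c. The 93 members comprised 36 subunits of complex I and 8 of its assembly factors (the Ndufaf genes), 4 subunits of complex II, 9 of complex III, 20 of complex IV and 16 of complex V. Ndufa4 and Ndufa4l2 carry complex I names but were counted with complex IV, where Ndufa4 protein is now placed. The rule itself uses names alone.

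Oxidative phosphorylation is the process by which mitochondria turn the energy of nutrients into ATP. Complexes I and II pass electrons from NADH and succinate to coenzyme Q, complex III hands them to cytochrome c, and complex IV passes them to oxygen. The proton gradient built on the way drives complex V, the ATP synthase. Resting T cells draw most of their ATP from this route, and activated T cells add a strong glycolytic flux while their mitochondria grow.

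The study asked how naive CD4 T cells differ from the helper and regulatory T cells made from them. Naive CD4 T cells were separated magnetically from the spleens of C57BL/6 mice aged 6 to 8 weeks. In every culture they received plate-bound anti-CD3e and anti-CD28, each at 10 µg/ml, for 3 days. The Th2 culture had IL-4 at 5 ng/ml with IL-2 at 1 ng/ml and 2 µg/ml anti-IFN-gamma. The Th9 culture had TGF-beta 1 at 2 ng/ml, IL-4 at 1 ng/ml and IL-2 at 0.2 ng/ml with 5 µg/ml anti-IFN-gamma. The induced regulatory T cell (iTreg) culture had 0.4 ng/ml IL-2, 5 ng/ml TGF-beta 1 and 5 µg/ml each of anti-IFN-gamma and anti-IL-4. Each culture was represented by 1 Agilent array, with its own RNA in Cy5 and naive RNA in Cy3. There was 1 biological replicate per culture and no dye swap, so all values are descriptions and no test across cultures was possible.

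The ratio against naive holds activation and medium together, since no sample was activated in a medium free of polarising cytokines. A dye effect of a probe and the naive-to-polarised difference cannot be told apart. Between cultures, only a dye effect that is the same on every array cancels. One that changes with brightness or between arrays need not cancel, and this was not tested. The arrays lay on the same slide, so a culture and its array position cannot be told apart. Between 48.9% and 54.1% of gene spots were well above background in a channel, and no spot was saturated. Of the T cell markers 8 of 9 had a matched probe, and all 8 were above background in both channels of every array. Their median log2 ratio in Th2, Th9 and iTreg was -0.90, -1.30 and -0.31 with loess (as defined with the ratios). With median centring it was 0.31, -0.25 and 0.00. Of 7 B cell markers, 2 were above background, Cd79b and Cd22, and among those that were not were Ms4a1, Cd79a, Pax5 and Blk. With loess, Cd79b stood at 2.08, 2.03 and 1.83 in Th2, Th9 and iTreg, and Cd22 at -0.78, -0.85 and -0.01. Of 6 matched myeloid markers 3 to 5 were above background in the naive channel and 2 or 3 in the polarised one. All 7 NK cell markers were above background in naive RNA and 3 or 4 in polarised RNA, and the red cell marker Hba-a1 was lower in every culture (log2 -2.54, -2.81 and -2.71 in Th2, Th9 and iTreg). The part of these cells in the members' values was not tested. In bulk RNA, fewer cells of a type and less RNA per cell cannot be told apart.

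Members lie on many chromosomes, and the results turn on a few of them. The windows printed here, from 250 bases before to 50 bases after the gene start (RefSeq, GRCm38.p6), show 6 such members. They are the muscle isoform gene Cox7a1 and the common isoform gene Cox6a1 of complex IV, the complex I subunit genes Ndufv3 and Ndufb8, the assembly factor gene Ndufaf4 and the complex III gene Uqcrh. Capitals mark the words GCATGCGC (nuclear respiratory factor 1, NRF-1), CCGGAAG (ETS factors such as GABP) and AAGATGGC (YY1) on either strand. These are textbook motifs of promoters of respiratory chain genes. Each window is written 5′ to 3′ along the gene's own strand.
Cox7a1, chr7:30183921-30184220, plus strand: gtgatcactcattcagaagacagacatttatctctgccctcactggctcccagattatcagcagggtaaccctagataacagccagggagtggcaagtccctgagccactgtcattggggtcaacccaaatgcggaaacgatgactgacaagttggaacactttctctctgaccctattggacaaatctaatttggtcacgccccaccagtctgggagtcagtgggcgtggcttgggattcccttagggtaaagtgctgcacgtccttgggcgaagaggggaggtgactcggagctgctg
Cox6a1, chr5:115348909-115349208, minus strand: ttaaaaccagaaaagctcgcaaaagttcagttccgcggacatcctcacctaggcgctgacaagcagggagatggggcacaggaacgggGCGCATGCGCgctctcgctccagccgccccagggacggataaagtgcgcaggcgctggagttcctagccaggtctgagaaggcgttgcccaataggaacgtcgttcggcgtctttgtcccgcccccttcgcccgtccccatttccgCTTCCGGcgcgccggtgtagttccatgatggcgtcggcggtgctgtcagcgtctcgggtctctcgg
Ndufv3, chr17:31519865-31520164, plus strand: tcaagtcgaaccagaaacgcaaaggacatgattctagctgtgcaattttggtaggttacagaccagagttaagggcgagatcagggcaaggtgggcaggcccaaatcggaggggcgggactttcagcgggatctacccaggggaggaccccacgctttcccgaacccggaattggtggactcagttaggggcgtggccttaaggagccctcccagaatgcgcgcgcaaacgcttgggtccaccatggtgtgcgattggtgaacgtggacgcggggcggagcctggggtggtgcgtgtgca
Ndufb8, chr19:44555393-44555692, minus strand: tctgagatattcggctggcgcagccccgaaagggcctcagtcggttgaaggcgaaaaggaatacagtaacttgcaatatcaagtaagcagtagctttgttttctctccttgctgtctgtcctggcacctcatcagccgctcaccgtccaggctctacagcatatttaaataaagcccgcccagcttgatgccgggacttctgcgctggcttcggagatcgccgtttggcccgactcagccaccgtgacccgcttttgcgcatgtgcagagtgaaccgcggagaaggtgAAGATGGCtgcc
Ndufaf4, chr4:24897833-24898132, plus strand: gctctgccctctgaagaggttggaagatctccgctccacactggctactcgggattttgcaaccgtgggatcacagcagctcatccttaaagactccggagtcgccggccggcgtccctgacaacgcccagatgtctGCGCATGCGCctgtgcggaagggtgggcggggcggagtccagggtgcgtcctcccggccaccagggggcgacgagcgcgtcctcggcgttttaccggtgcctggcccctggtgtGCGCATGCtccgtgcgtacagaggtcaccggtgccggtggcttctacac
Uqcrh, chr4:116075021-116075320, minus strand: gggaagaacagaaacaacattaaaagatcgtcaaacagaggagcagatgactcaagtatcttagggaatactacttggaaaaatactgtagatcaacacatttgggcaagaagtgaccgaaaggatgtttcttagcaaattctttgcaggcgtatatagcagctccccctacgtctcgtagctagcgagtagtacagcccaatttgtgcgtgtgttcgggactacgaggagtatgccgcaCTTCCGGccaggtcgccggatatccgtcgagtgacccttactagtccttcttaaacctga
Neither Cox7a1 nor Ndufv3, which were past 2-fold in all 3 cultures, held any of the 3 words in this window. Ndufaf4 held the NRF-1 word at 3 positions, of which 2 overlap because the word and its reverse complement share letters. Cox6a1 held an overlapping pair of the NRF-1 word and 1 ETS word, Uqcrh held 1 ETS word, and Ndufb8 held 1 YY1 word after the start. Of the 93 members, 75 had a window in the table, with 80 windows between them because some have several starts. At least 1 of the words was present in 43.8% of the members' windows, against 13.3% of all 32851 windows. All windows covered 27025 genes and were not matched to the members in brightness or base composition. Whether the higher shares are particular to the members was therefore not tested. The NRF-1 word was in 15.0% of members' windows (2.7% of all), the ETS word in 23.8% (8.9%) and the YY1 word in 13.8% (2.7%). The YY1 word was found in 7 complex I windows and in none of the 14 complex IV windows. Of its 11 occurrences in members, 9 began at or after the start base, which is 81.8%, against 40.2% of its occurrences over all windows. A match of letters is a description and does not show that a factor binds there. The 35 members with a word and the 38 measured members without one had median log2 ratios of 0.21 and 0.16 in Th2, 0.19 and 0.26 in Th9, and 0.01 and 0.03 in iTreg (loess, as defined with the ratios).

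The members were among the brightest genes on each array. Their median percentile of mean log2 intensity over both channels was 93.9 on the Th2 array, 94.2 on the Th9 array and 93.7 on the iTreg array. A member was called measured on an array when its brightest probe was well above background in both channels. In all, 88 members were measured on every array. Cox6a2 was measured on the Th2 array alone, and Cox7b2, Cox8b, Cox8c and Ndufa4l2 on none. All of these are genes for alternative, tissue-restricted isoforms of complex IV subunits. With loess, no member had 2 measured probes that differed by more than 2-fold on any array, although 24 members had more than 1 probe. This did not hold with median centring, where 2 probes of Ndufv3 gave 3.231 and 1.655 in Th2. Likewise, 2 probes of Cox7c then gave 2.26 and 0.635 in Th2. Probes for near-identical pseudogenes were not tested for cross-hybridisation.

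How far the members as a group stood above naive depended on the scaling of the arrays. With loess, which sets the typical ratio to 0 at every brightness, the members' median log2 ratio was 0.16 in Th2 (n = 89), 0.23 in Th9 (n = 88) and 0.02 in iTreg (n = 88). The median of all measured genes was then -0.02, -0.01 and -0.02. With median centring, which shifts each array by a single constant, the members' medians were 1.19, 1.00 and 0.11. The same scaling put the median of all measured genes at 0.33, 0.16 and -0.17. The Th2 and Th9 medians of the members were thus near 2-fold above naive in 1 scaling and close to naive in the other, while the iTreg median was close to naive in both.

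The counts moved in the same way. With loess, 6 of 89 members were at least 2-fold higher in Th2, where 14.8% of all measured genes were, and 1 was at least 2-fold lower (14.5% of all). In Th9, 6 of 88 were higher (15.5% of all) and 1 was lower (15.6%). In iTreg, 3 were higher (10.2% of all) and 2 lower (8.15%). The share of members past 2-fold was therefore below that of all genes on each array with loess. With median centring, 55 members were higher in Th2 (25.4% of all genes) and 44 in Th9 (21.5%), but only 4 in iTreg (8.19%). No member was then lower in Th2 (7.40% of all) or Th9 (11.4%), and 2 were in iTreg (12.0%). The sign of the ratio itself differed between the scalings for 31 of 88 members in Th2, 26 in Th9 and 13 in iTreg.

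**Figure D1:**
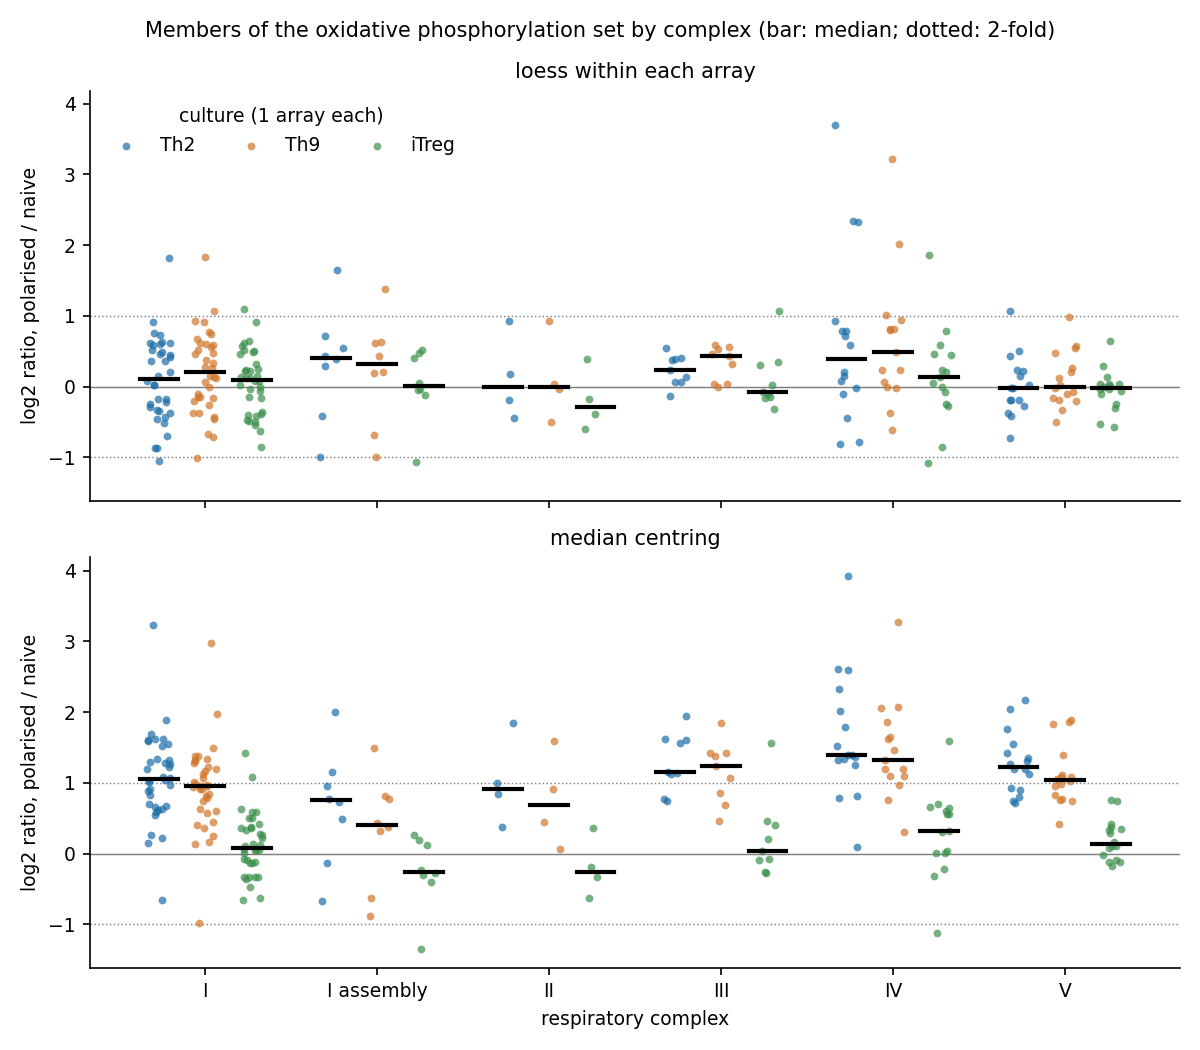
Log2 ratio of polarised over naive signal for each measured member (points, 1 array per culture) by complex, with the median as a bar, under loess and under median centring. Under loess the medians of all complexes lie between -0.28 and 0.48, and under median centring the Th2 and Th9 points move up while the iTreg points stay near 0.

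The brightness of the members and the scaling moved together. Under median centring, all genes in the brightest 25% had a median of 0.67 in Th2 and 0.46 in Th9, against -0.12 in iTreg. Between 83.0% and 84.1% of the measured members fell in that range. Within it, the members' median exceeded that of all genes in both scalings. In Th2 the excess was 0.28 log2 units with loess and 0.57 with median centring (74 members among 2736 genes). In Th9 it was 0.30 and 0.60 (74 among 2695), and in iTreg 0.14 and 0.23 (73 among 2779). In the brightest 10% the excess was 0.27 and 0.32 in Th2, 0.28 and 0.33 in Th9, and 0.16 and 0.18 in iTreg. Compared with genes of like brightness, the members thus stood slightly higher in each culture under either scaling, by less in iTreg than in Th2 and Th9. The difference between cultures in this excess was not tested. In the brightest 10%, 65.6% of members were at least 2-fold higher in Th2 with median centring, against 48.4% of all genes there. The shares were 55.7% and 41.5% in Th9, and 5.2% and 10.8% in iTreg. With loess they were 3.3% and 10.7% in Th2, 4.9% and 10.9% in Th9, and 3.4% and 5.8% in iTreg.

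**Figure D2:**
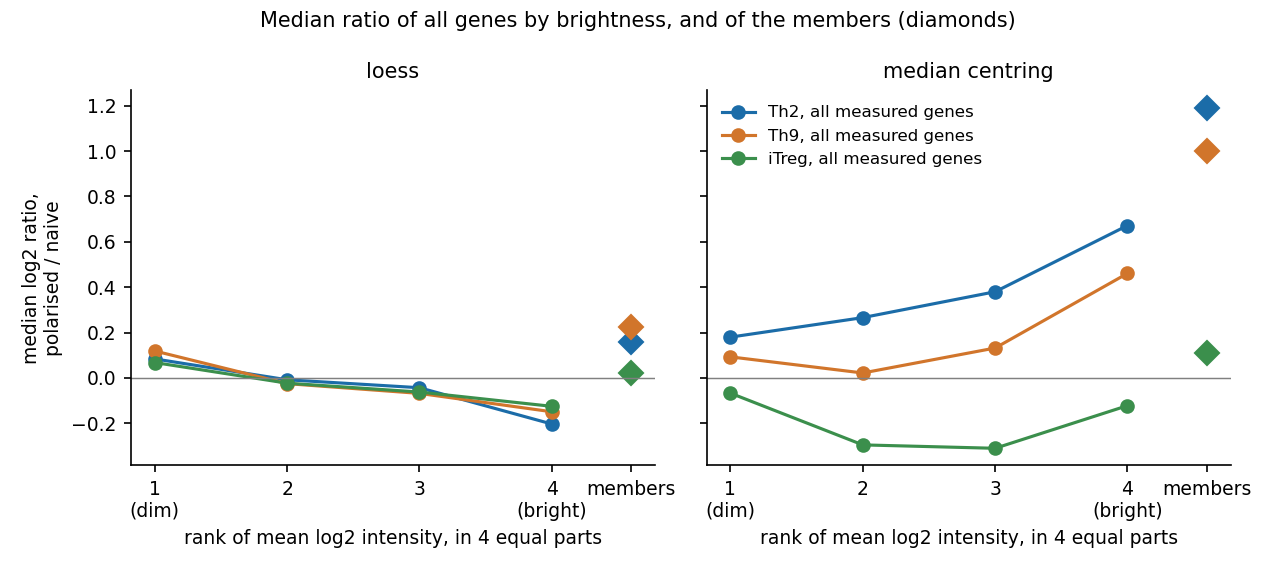
Median log2 ratio of all measured genes in 4 equal ranks of mean log2 intensity, from dim to bright (lines) and of the members (diamonds), for 1 array per culture. Under median centring the brightest 25% of all genes reaches 0.67 in Th2 and 0.46 in Th9 but -0.12 in iTreg, and the members lie above it in every culture.

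Several of these shifts were no larger than the error of a single ratio. That error does not measure the uncertainty of a median over many members. The scanner software's error for a member had a median of 0.21 log2 units on each array. Channel levels were also compared after loess and after scaling the arrays to a common distribution of brightness. The naive channels, hybridised with naive RNA on each of the 3 arrays, then gave a median SD of 0.037 per member (n = 88, highest for Cox7a2l at 0.16). The 3 polarised channels gave a median SD of 0.16 in the same way. Neither SD gives the spread of the raw signals. The scanner software's errors cover 1 array each and not the spread between cultures grown separately.

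**Figure D3:**
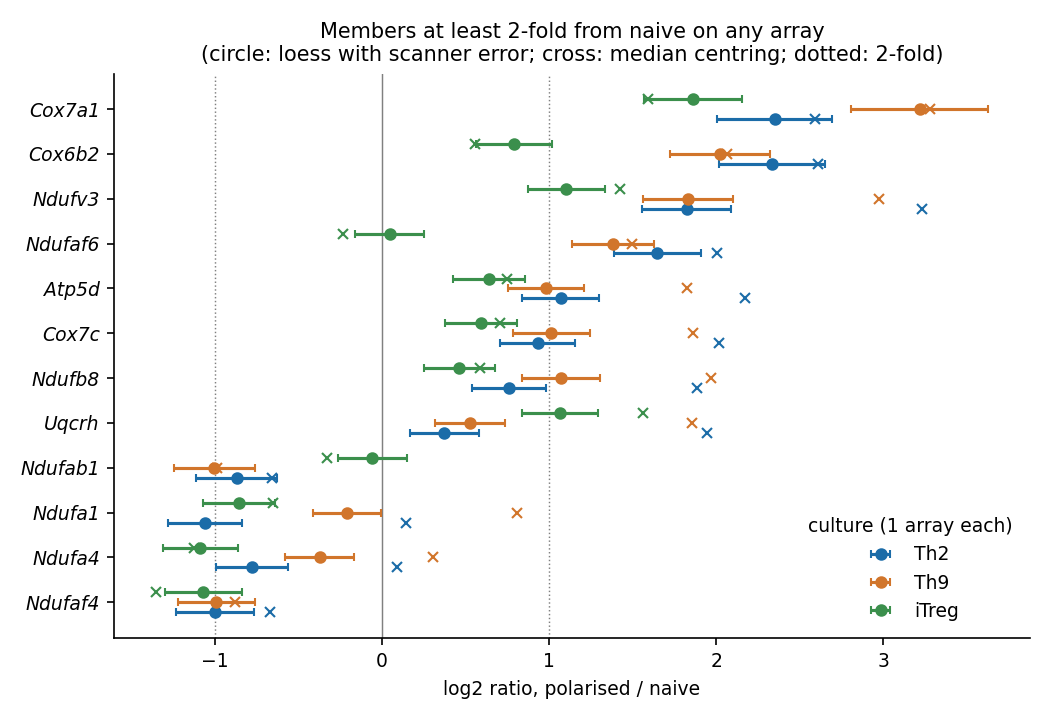
Log2 ratios of the 12 members that were measured on all arrays and at least 2-fold from naive on any of them, with loess (circles, bars are the scanner software's error, n = 1 array) and with median centring (crosses). Cox7a1 and Ndufv3 lie beyond 2-fold in all 3 cultures under both scalings, whereas Ndufa1 lies on opposite sides of 0 in Th2.

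Of the 88 members measured on all arrays, 76 stayed within 2-fold of naive in every culture with loess. Cox7a1 and Ndufv3 were at least 2-fold higher in all 3 cultures, where 7.29% of all genes were. None was at least 2-fold lower in all 3 (6.02% of all genes). The remaining members past 2-fold in some culture were Cox6b2, Ndufaf6, Atp5d, Ndufb8, Cox7c and Uqcrh on the higher side, and Ndufa1, Ndufab1, Ndufa4 and Ndufaf4 on the lower side.

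Complex I admits electrons from NADH, and its 7 nuclear core subunits carry the flavin and the iron-sulfur clusters. Their median log2 ratio was 0.49 in Th2, 0.56 in Th9 and 0.08 in iTreg with loess, and 1.05, 0.95 and -0.12 with median centring. Ndufv2, which carries an iron-sulfur cluster, was at 0.64 ± 0.22, 0.67 ± 0.22 and 0.49 ± 0.21 with loess (± gives the scanner software's error, n = 1 array). Ndufs3 stood at 0.59 in Th2, 0.56 in Th9 and 0.16 in iTreg. Ndufs8, an iron-sulfur subunit, was at 0.49, 0.58 and 0.08. Ndufv1, the NADH-binding subunit, was nearer to naive with loess, at -0.17, 0.12 and -0.40. Ndufs7, near the quinone site, was at -0.29, -0.26 and -0.49, and Ndufs1, which carries several clusters, at -0.51, -0.38 and -0.54. With median centring Ndufs1 turned positive in Th2 and Th9 (0.26 and 0.17) and stayed negative in iTreg (-0.62). Core subunits of the same complex thus lay on both sides of naive with loess.

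Ndufv3 is a small accessory subunit of the NADH-oxidising arm. Its naive signal was 14190.5, 14770.5 and 18152 scanner units above background on the Th2, Th9 and iTreg arrays, and its polarised signal was 130181, 132750 and 69842. The channels carry different dyes, so their signals cannot be set against each other directly. Among the polarised signals, that of the iTreg culture was the lowest of the 3. The log2 ratio was 1.82 ± 0.27 in Th2, 1.83 ± 0.27 in Th9 and 1.1 ± 0.23 in iTreg with loess, and 3.23, 2.97 and 1.42 with median centring. A second, dimmer probe gave 1.37, 1.16 and 1.77 with loess. Both probes were higher in every culture, but they placed the iTreg culture at opposite ends of the order.

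The other accessory subunits of complex I lay closer to naive. All 29 accessory subunits together had a median of 0.08, 0.15 and 0.12 with loess, and 1.07, 0.96 and 0.11 with median centring. Ndufb8, in the membrane arm, had naive signals of 10281, 10102.5 and 10486 and polarised signals of 37167.5, 45256.5 and 22578.5. Its ratio was 0.76 ± 0.22 in Th2, 1.07 ± 0.23 in Th9 and 0.46 ± 0.21 in iTreg. The naive signals were nearly equal on the 3 arrays, and Th9 was highest. Ndufb6, another membrane-arm subunit, was at 0.92, 0.93 and 0.62.

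At the lower end of complex I, Ndufa1, a small membrane-arm subunit encoded on the X chromosome, had opposite signs in the 2 scalings. Its naive signals were 23260, 21756 and 22512, and its polarised signals 25075, 43580.5 and 20478.5. The ratio was -1.06 ± 0.22 in Th2, -0.21 ± 0.20 in Th9 and -0.85 ± 0.22 in iTreg with loess, but 0.15, 0.81 and -0.65 with median centring. Th9 was higher than both other cultures under either scaling, whereas the sign against naive in Th2 and Th9 depended on it. Ndufab1, the mitochondrial acyl carrier protein, had naive signals of 446, 452 and 417 and polarised signals of 243, 217 and 432.5. It was lower in Th2 and Th9 (-0.87 ± 0.24 and -1.0 ± 0.24) and near naive in iTreg (-0.06 ± 0.21). Median centring gave -0.66, -0.99 and -0.33. Ndufb4, a membrane-arm subunit, was at -0.86, -0.71 and -0.47 with loess but at 0.22, 0.13 and -0.32 with median centring.

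Assembly factors build complex I without staying in it, and the 8 that were measured diverged. Their median was 0.41, 0.32 and 0.00 with loess and 0.75, 0.40 and -0.25 with median centring. Ndufaf4 had naive signals of 1284, 1350 and 1274 and polarised signals of 755, 796 and 648. Among the polarised signals, that of iTreg was the lowest. The log2 ratio was -1.0 ± 0.23, -0.99 ± 0.23 and -1.07 ± 0.23 in Th2, Th9 and iTreg with loess, just short of 2-fold in Th2 and Th9 and just past it in iTreg. Median centring gave -0.67, -0.88 and -1.35. The other probe of Ndufaf4 gave -1.88, -1.51 and -1.81 with loess, past 2-fold in all 3 cultures.

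Ndufaf6 behaved differently from Ndufaf4. Its naive signals were 595, 590 and 532, and its polarised signals were 2449 in Th2, 1958 in Th9 and 607 in iTreg. The ratio was 1.65 ± 0.26, 1.38 ± 0.24 and 0.05 ± 0.21 with loess, and 2.00, 1.5 and -0.23 with median centring. The Th2 and Th9 cultures were high and the iTreg culture stood at the naive level. Of the others, Ndufaf3 stood at 0.43, 0.63 and 0.40 and Ndufaf8 at -0.42, -0.68 and -0.11, each within 2-fold of naive on every array with loess. Ndufaf1, Ndufaf2, Ndufaf5 and Ndufaf7 were also within 2-fold on every array with loess.

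Complex II, succinate dehydrogenase, belongs to both the citric acid cycle and the respiratory chain. Sdha, the flavoprotein, was at -0.45 ± 0.21 in Th2, -0.50 ± 0.21 in Th9 and -0.59 ± 0.21 in iTreg with loess, and at 0.37, 0.06 and -0.63 with median centring. Sdhd, a membrane anchor, was at 0.93 ± 0.22, 0.93 ± 0.22 and 0.39 ± 0.21 with loess, and at 1.85, 1.59 and 0.36 with median centring. Sdhb, the iron-sulfur protein, was at -0.19, -0.03 and -0.39, and Sdhc, the other anchor, at 0.19, 0.03 and -0.17. Sdhd was highest and Sdha lowest on each array, in both scalings. All 4 subunits were lower in iTreg than in Th2 and Th9 under either scaling.

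Complex III passes electrons from coenzyme Q to cytochrome c. None of its 9 members reached 2-fold in Th2 or Th9 with loess. The median was 0.24, 0.44 and -0.07 with loess and 1.16, 1.24 and 0.04 with median centring. Uqcrfs1, the Rieske iron-sulfur protein, was at 0.13, 0.43 and 0.31, and Cyc1, cytochrome c1, at 0.40, 0.56 and -0.15. The core proteins Uqcrc1 and Uqcrc2 were at 0.07 and 0.54 in Th2, 0.00 and 0.59 in Th9, and -0.16 and 0.34 in iTreg. Uqcr11, a small subunit, was at -0.13, 0.03 and -0.10. Uqcr10, Uqcrb and Uqcrq were within 2-fold on every array with loess.

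Uqcrh, the hinge protein that helps cytochrome c to dock, was the member of complex III that passed 2-fold. Its naive signals were 35096, 36954.5 and 37025, and its polarised signals 131870.5, 152441 and 156824. The ratio was 0.37 ± 0.21 in Th2, 0.53 ± 0.21 in Th9 and 1.07 ± 0.23 in iTreg with loess. The iTreg culture was the highest with loess and the lowest with median centring (1.95, 1.85 and 1.56). Uqcrh was higher than naive in all cultures in both scalings.

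Complex IV, cytochrome c oxidase, is the complex whose subunits exist in common and in tissue-restricted isoforms. A restricted gene gave the highest ratio of all members on each array with loess. Cox7a1, the heart and muscle form of subunit 7A, had naive signals of 158.5, 172.5 and 187.5 and polarised signals of 1147.5, 2278 and 897. The polarised signal was highest in Th9 and lowest in iTreg. The ratio was 2.35 ± 0.34 in Th2, 3.22 ± 0.41 in Th9 and 1.86 ± 0.29 in iTreg with loess, and 2.59, 3.28 and 1.59 with median centring. The common form Cox7a2 was at 0.72 ± 0.22, 0.80 ± 0.22 and 0.45 ± 0.21 with loess.

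Cox6a2, the heart and muscle form of subunit 6A, had naive signals of 65.5, 51 and 46 and polarised signals of 1612 in Th2, 404 in Th9 and 74 in iTreg. The naive signal was well above background on the Th2 array only. The Th2 ratio was 3.70 ± 0.55 with loess and 3.92 with median centring. In Th9 and iTreg the naive signal was not well above background, so the ratios there are uncertain. With loess they were 2.22 in Th9 (4.65-fold) and 0.47 in iTreg (1.38-fold). Median centring gave 2.20 and 0.40. The order of the polarised signals was Th2, Th9 and iTreg. The common form Cox6a1 was at -0.44 ± 0.21, -0.02 ± 0.20 and -0.85 ± 0.22 with loess but at 1.32, 1.46 and -0.31 with median centring.

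Cox6b2, the testis form of subunit 6B, had naive signals of 226.5, 207 and 177 and polarised signals of 1566.5, 1107 and 369. It stood at 2.33 ± 0.32 in Th2, 2.02 ± 0.30 in Th9 and 0.79 ± 0.23 in iTreg with loess, and at 2.61, 2.06 and 0.56 with median centring. The common form Cox6b1 was at 0.79, 0.82 and 0.47. Cox4i2, a form of subunit 4 known from lung, had naive signals of 227, 219 and 196 and polarised signals of 399, 509 and 202. It stood at 0.58 ± 0.22, 0.95 ± 0.23 and 0.00 ± 0.22, under 2-fold in each culture in both scalings. The common form Cox4i1 was at -0.10, 0.00 and 0.21 with loess but at 1.36, 1.20 and 0.61 with median centring. Of 8 restricted isoform genes, 4 were therefore detected in polarised RNA and 4 (Cox7b2, Cox8b, Cox8c and Ndufa4l2) were in neither channel measured.

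**Figure D4:**
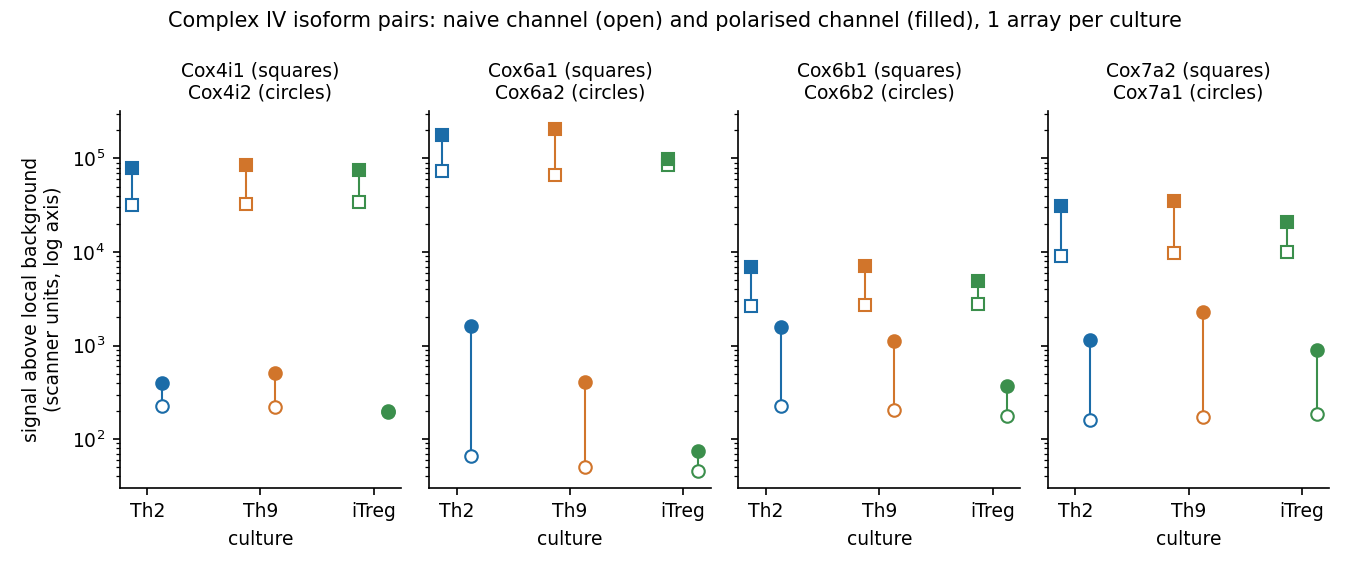
Signal above local background (scanner units, log axis) of 4 common (squares) and restricted (circles) complex IV isoform genes in the naive (open) and polarised (filled) channel of each array. Levels of different probes and of the 2 dyes cannot be set against each other; the spread between open and filled circles is wide for Cox7a1 in all cultures, and for Cox6a2 and Cox6b2 in Th2 and Th9, and the naive signal of Cox6a2 was above background on the Th2 array only.

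Without the restricted isoforms, 12 complex IV members remained, with a median of 0.12, 0.24 and 0.09 with loess and 1.38, 1.26 and 0.31 with median centring. Cox7c, a small structural subunit, had naive signals of 8755.5, 9095.5 and 9591.5 and polarised signals of 34635.5, 37823.5 and 22405.5. It was at 0.93 ± 0.22, 1.02 ± 0.23 and 0.59 ± 0.21 with loess, and its 2 other probes gave 1.32 and 0.54 in Th2. Cox8a, the common form of subunit 8, was at 0.79, 0.82 and 0.23. Cox5a and Cox5b, which lie on the matrix side, were at 0.16 and 0.21 in Th2, 0.48 and 0.24 in Th9, and -0.27 and -0.07 in iTreg. Cox6c and Cox7b were within 2-fold on every array with loess.

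Ndufa4 and Cox7a2l were the lowest complex IV members in Th2 and Th9 with loess, and Ndufa4 also in iTreg. Ndufa4 had naive signals of 9563, 9614 and 9632 and polarised signals of 9898.5, 13543 and 6271.5. The naive signals were almost equal, and iTreg was lowest. The ratio was -0.78 ± 0.22 in Th2, -0.37 ± 0.21 in Th9 and -1.08 ± 0.22 in iTreg with loess, and 0.09, 0.31 and -1.12 with median centring, so only the iTreg value kept its sign. Cox7a2l was at -0.81 ± 0.22, -0.61 ± 0.21 and 0.13 ± 0.20 with loess. With median centring it was at 0.82, 0.76 and 0.66, so its order across the cultures was reversed between the scalings. A further probe of Cox7a2l gave 0.10, 0.20 and 0.59 with loess.

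Complex V, the ATP synthase, lay near naive with loess. Its 16 members had a median of -0.02, 0.00 and -0.02, and of 1.23, 1.04 and 0.14 with median centring. Atp5d, the delta subunit of the central stalk, had naive signals of 8762.5, 9173.5 and 9200.5 and polarised signals of 38678, 37213 and 22137. It was the highest at 1.07 ± 0.23 in Th2, 0.98 ± 0.23 in Th9 and 0.64 ± 0.21 in iTreg. The alpha subunit Atp5a1 was at -0.41, -0.20 and -0.30 with loess and at 0.75, 0.74 and -0.10 with median centring. The gamma and epsilon subunits, Atp5c1 and Atp5e, were at 0.15 and 0.02 in Th2, 0.27 and -0.07 in Th9, and 0.04 and -0.24 in iTreg.

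Atp5b, the catalytic beta subunit, differed most between cultures within complex V. Its naive signals were 34704, 33545 and 43501, and its polarised signals 115368, 139659 and 54954. The ratio was 0.22 ± 0.21 in Th2, 0.57 ± 0.21 in Th9 and -0.57 ± 0.21 in iTreg with loess, and 1.77, 1.87 and -0.18 with median centring. The iTreg array had the lowest polarised signal and also the highest naive signal of this gene.

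The proton-carrying c ring is encoded by several genes for identical mature proteins, of which Atp5g2 stood at 0.43, 0.54 and 0.29 and Atp5g3 at -0.18, -0.16 and 0.04 with loess. Atp5h, of the peripheral stalk that holds the head still, was the lowest of complex V in Th2 and Th9, at -0.72 ± 0.21, -0.50 ± 0.21, and stood at -0.53 ± 0.21 in iTreg with loess, but stood at 0.80, 0.76 and -0.11 with median centring. The 4 peripheral stalk genes (Atp5h, Atp5j, Atp5o and Atp5pb) had a median of -0.02, -0.06 and -0.07 with loess. The 5 accessory membrane subunits Atp5j2, Atp5k, Atp5l, Atp5md and Atp5mpl had a median of -0.18, -0.02 and 0.00 and a range of -0.37 to 0.14 over all arrays. None of them came near 2-fold with loess.

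Between cultures, the members were most alike in Th2 and Th9. With loess the median difference, Th9 minus Th2, was 0.06 over the 88 members measured on all arrays, and none of them differed 2-fold (2.66% of all genes did). Cox6a2 is not among these 88. With median centring it was -0.18, against -0.23 for all genes. Ndufa1 and Cox7a1 had the largest differences, 0.85 ± 0.30 and 0.87 ± 0.53 with loess (errors of the spots combined) and 0.66 and 0.69 with median centring. Next were Ndufb2 at 0.43 ± 0.29, Cox6a1 at 0.42 ± 0.29 and Ndufa4 at 0.41 ± 0.30 with loess. Median centring gave 0.24, 0.14 and 0.22 for them. At the other end, Ndufaf1, Cox6b2, Ndufaf6, Ndufaf8 and Ndufaf7 had differences of -0.35 ± 0.29, -0.31 ± 0.44, -0.27 ± 0.36, -0.27 ± 0.30 and -0.18 ± 0.29. Of these negative differences, only that of Ndufaf1 exceeded its error.

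The iTreg culture stood below the others for most members. With loess the median difference was -0.14 from Th2 and -0.19 from Th9, where the medians of all genes were 0.00 and 0.01. With median centring it was -1.03 and -0.89, against -0.59 and -0.37 for all genes. The iTreg ratio was the lowest of the 3 for 59 of 88 members with loess, where it was for 42.8% of all genes measured on every array, and for 86 of 88 with median centring (70.8% of all). Past 2-fold with loess were 2 members lower in iTreg than in Th2 (13.6% of all genes differed in either direction) and 4 lower than in Th9 (13.1%), and none was higher. With median centring 48 were at least 2-fold lower than in Th2 (26.8% of all genes) and 33 lower than in Th9 (16.8%). These comparisons share the iTreg array and are not independent of each other.

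Some of the same genes led both iTreg comparisons. The log2 difference of Ndufaf6 was -1.60 ± 0.33 from Th2 and -1.33 ± 0.32 from Th9 with loess, and that of Cox6b2 was -1.54 ± 0.39 and -1.23 ± 0.38. From Th9, Cox7a1 (-1.35 ± 0.50) and Atp5b (-1.15 ± 0.30) also passed 2-fold, and Cox4i2 stood at -0.95 ± 0.32. All 5 were lower in iTreg than in Th9 with median centring as well. From Th2, Atp5b (-0.80 ± 0.29), Ndufaf2 (-0.76 ± 0.30) and Ndufv3 (-0.72 ± 0.35) followed, the last only by its brightest probe.

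Higher in iTreg than in Th2 with loess were Cox7a2l by 0.94 ± 0.30, Ndufab1 by 0.81 ± 0.32, Uqcrh by 0.69 ± 0.31, Ndufb2 by 0.69 ± 0.29 and Ndufa6 by 0.45 ± 0.31. Of these, only Ndufab1 was also higher with median centring (0.33), and the other 4 were then lower. Against Th9, Ndufab1 was higher by 0.94 ± 0.32 and Ndufaf8 by 0.57 ± 0.30, and both were higher with median centring too (0.66 and 0.23). Cox7a2l (0.74 ± 0.29), Uqcrh (0.54 ± 0.31) and Ndufa6 (0.43 ± 0.31) were higher than in Th9 with loess only. Ndufab1 was thus the only one of these genes that was higher in iTreg than in both other cultures under both scalings.

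**Figure D5:**
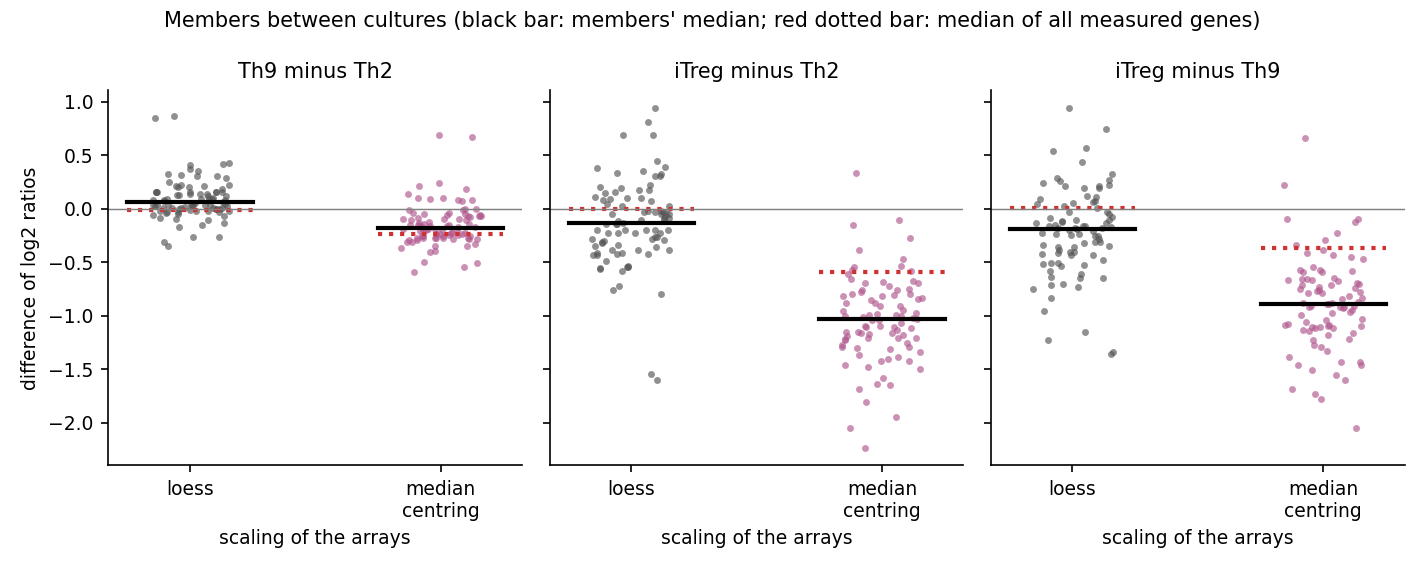
Difference of log2 ratios between 2 cultures for the 88 members measured on all arrays (points), with the members' median (black bar) and the median of all measured genes (dotted red bar), under loess and under median centring. The iTreg medians lie below the all-gene medians in both scalings (-0.14 and -1.03 against Th2), whereas Th9 minus Th2 stays near 0.

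Around the complexes, some genes that serve or restrain the ATP synthase had large ratios. Of 10 genes for the exchange of ADP, ATP and phosphate or for uncoupling, 3 were at least 2-fold higher with loess on each array (14.8%, 15.5% and 10.2% of all genes), namely Atpif1, Vdac1 and Slc25a4. With median centring 6, 6 and 3 were (25.4%, 21.5% and 8.19% of all genes). Atpif1, the protein that inhibits ATP hydrolysis by complex V, stood at 2.04, 2.09 and 2.16. Vdac1, a channel of the outer membrane, stood at 2.07, 2.37 and 1.56, and Slc25a4, an ADP/ATP carrier, at 1.59, 2.1 and 1.47. Slc25a5, the other common ADP/ATP carrier, was at 0.62, 0.94 and -0.09, and Slc25a3, the phosphate carrier, at 0.03, 0.08 and -0.52. The uncoupling protein genes Ucp2 and Ucp3 were lower (-0.94 and -0.97 in Th2, -1.24 and -1.18 in Th9, -0.51 and -0.49 in iTreg), past 2-fold in Th9 only, and with median centring in no culture.

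Of 15 genes for cytochrome c and the synthesis of coenzyme Q, 14 were measured, and their median was 0.05, 0.10 and -0.05 with loess. Cytochrome c itself, Cycs, was at -0.17, -0.18 and -0.44. Hccs, which attaches haem to it, was at -1.19, -1.21 and -0.14 with loess, but above naive in every culture with median centring (0.42, 0.13 and 0.39). Coq7 was highest in Th2 and Th9 (0.96 and 0.97) and Coq8a in iTreg (1.04). Among 41 assembly factors outside the naming rule, 35 to 37 were measured, with medians of -0.03, -0.07 and -0.12. Nubpl, an iron-sulfur assembly factor of complex I, was highest on every array (1.62, 1.48 and 1.13). Uqcc3, a factor for complex III, was lowest in Th2 and Th9 (-1.48 and -1.57), and Tmem186 in iTreg (-0.83). In Th2 and Th9, 6 of these factors were at least 2-fold lower with loess, where 14.5% and 15.6% of all genes were, and 0 in iTreg (8.15%). With median centring the counts were 1 in Th2, 2 in Th9 and 1 in iTreg.

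Regulators of mitochondrial biogenesis stood lower than the subunits in Th2 and Th9. Of 19 on the list 17 were measured, with a median of -0.61, -0.73 and -0.16 with loess and of -0.19, -0.58 and -0.37 with median centring. Polrmt, the mitochondrial RNA polymerase, was lowest with loess at -1.11, -1.44 and -1.22. The coactivator Pprc1 was at -1.05, -1.25 and -1.0 and the nuclear receptor Esrra at -1.01, -0.96 and -0.93. Tfam, which packs and transcribes mitochondrial DNA, was at -0.70, -0.94 and -0.65. These 4 were negative on every array in both scalings. Nrf1 and Gabpa, the factors named by the words searched in promoters, were at -0.61 and -0.62 in Th2, -0.57 and -0.53 in Th9, and -0.07 and -0.04 in iTreg. Gabpb1 was at -0.39, -0.77 and 0.01, and Yy1 at 0.57, 0.57 and -0.31.

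Among the other regulators, Polg2, a subunit of the mitochondrial DNA polymerase, was highest with loess at 0.79, 0.98 and 1.03, while its catalytic partner Polg was at -0.76, -0.76 and -0.52. Tfb1m was at 0.71, 0.71 and 0.13, Tfb2m at -0.10, -0.33 and -0.01, and Myc at 0.78, 0.50 and 0.64. Twnk, Ssbp1, Mterf1a and Mterf3, which replicate or read mitochondrial DNA, ranged from -1.18 to -0.13. The coactivators Ppargc1a and Ppargc1b were not measured in both channels. The 13 subunits encoded by mitochondrial DNA itself were not analysed here.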

How the data were processed

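Naive and polarised RNA were measured on 3 two-colour Agilent mouse arrays. The deposited scanner files hold median spot and background intensity per channel from Agilent Feature Extraction (11.0.1.1 per the file headers, 9.3.2.1 per the submitters' processing notes), with a log10 ratio, its log10 error and a p-value of the software per the file headers. The deposited values of the series proved to be log2 ratios of the processed signals with 1 constant added per array (0.056, 0.021 and 0.037; correlation 1.0); the column medians are 0.138, 0.259 and 0.283, and the centring is not stated.

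Median intensities were corrected by normexp (offset 50), log2 ratios of Cy5 over Cy3 were normalised by loess within each array or by median centring, and spots of a probe were averaged (limma 3.58.1 in R 4.3.3, with data.table, version 1.17.8; Python 3.11.15, pandas 2.3.3, numpy 2.4.6, matplotlib 3.10.9). The loess step was run on simulated data with a constant dye factor and no trend of ratio with brightness. That run therefore cannot decide between loess and median centring. Of 39429 probes 26049 (66.1%) matched a gene by RefSeq accession; the files carry no gene names. The brightest probe stood for a gene. For a gene with 1 channel at background, the dim level was set from the lowest level called above background in that channel or its own signal. For Cox6a2 its own signal was used, so the value equals the fitted loess ratio and is not a firm bound.

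With 1 array per culture, genes were counted by size (2-fold) and nothing was tested; the array number limits the precision. Named were the 2 highest and lowest members of each complex, every member past 2-fold, core, F1 and isoform genes, the 5 largest differences between each pair of cultures, the extremes of each other list and all biogenesis regulators; Ndufaf1, Ndufaf2, Ndufaf7, Ndufa6, the members given only as within 2-fold, and Slc25a3, Slc25a4, Slc25a5, Ucp3 and Cycs were added after their values were seen. Values of 1 core subunit and 1 marker are not reported here. The members and lists were chosen with earlier results of these data known.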

Additional observations from a re-analysis of the deposited data

Results flagged for a closer look

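Atp5b, the catalytic beta subunit of ATP synthase, was above naive by more than 2 times its error in Th9 (0.57) and below naive by more than 2 times its error in iTreg (-0.57), a difference of 1.15 log2 units with loess. The opposite signs of the single arrays drew attention to it, and the difference was not tested. With median centring both values shift, to 1.87 and -0.18, and the signs stay opposite. The iTreg value is then smaller than its error, so the rule of more than 2 times the error is met with loess only.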

How the results depend on the processing

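No paired analysis was possible because each culture has 1 array and the cultures share a single replicate number. The scaling moved the results most. With median centring the median log2 ratio of members in Th2, Th9 and iTreg was 1.192, 0.999 and 0.109. At least 2-fold higher were 55 and 44 members in Th2 and Th9 (25.4% and 21.5% of all genes), and 0 were lower in either (7.40% and 11.4%). On all 3 arrays 4 were higher, and the share of all genes was not computed for that count. Ndufa1 in Th2 turned to 0.146. The median difference became -0.178 for Th9 minus Th2, -1.033 for iTreg minus Th2 and -0.893 for iTreg minus Th9. Of 19 ratios of named members past 2-fold, 17 stayed past it the same way.

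Other choices moved the medians less. In the order Th2, Th9 and iTreg they were 0.234, 0.272 and 0.1 after plain background subtraction, 0.236, 0.283 and 0.062 with processed signals, and 0.292, 0.303 and 0.099 with the deposited series values; the median over all probes gave 0.223 in Th2. With that median or processed signals, 2 members were at least 2-fold lower in Th2, 2 in Th9 and 1 on all 3 arrays, and without background correction 2 were lower in Th2. In iTreg 1 was lower after subtraction and 1 among structural subunits only. At 1.5-fold, 20, 22 and 9 members were higher and 8, 6 and 6 lower in Th2, Th9 and iTreg, with 7 higher and 2 lower on all 3. Leaving out 1 array, 2 to 4 members were higher on all the others (4 without iTreg, with Cox6b2 and Ndufaf6 added), and none was lower. For the counts in this paragraph, the share of all genes under the same setting was not computed, so they describe the members alone. Of the medians over all members, the Th9 minus Th2 difference with median centring changed sign and no other did. Signal over background limits Cox6a2, whose naive signal is near background, and the 4 members measured on no array, and no replicate shows how far cultures of 1 kind differ.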

Other observations

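Genes for mitochondrial ribosomal proteins, which translate the subunits encoded in mitochondrial DNA, lie outside the naming rule. Of 78 such genes 77 were measured, with a median log2 ratio of 0.24 in Th2, 0.19 in Th9 and -0.02 in iTreg with loess, and of 0.86, 0.56 and -0.14 with median centring. With loess 8, 7 and 3 were at least 2-fold higher (14.8%, 15.5% and 10.2% of all genes) and 3, 6 and 1 at least 2-fold lower (14.5%, 15.6% and 8.15%). With median centring 31, 22 and 2 were higher (25.4%, 21.5% and 8.19% of all genes) and 1, 2 and 2 lower (7.40%, 11.4% and 12.0%). Mrpl45, of the large subunit, was highest on every array at 2.82, 2.52 and 2.00, and Mrpl15 was lowest at -1.70, -1.50 and -1.44. Mrpl1, chosen after its values were seen, stood at 1.97 in Th2, 1.87 in Th9 and 0.28 in iTreg. Its order across the cultures was that of Ndufaf6.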
